A study of Mus musculus with 18 samples.

Results

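Cilp fibroblasts, as the term is used here, are skin fibroblasts that carried at least 2 transcripts of Cilp and few or none of the genes that mark other fibroblast states. They numbered 832 of 10733 fibroblasts and of 47251 cells in all. Cilp encodes a secreted matrix protein of cartilage and fibrous connective tissue that is known to bind TGF-beta and IGF1. The working label of these cells also names Lox, the copper enzyme that crosslinks collagen and elastin, Slit2, a secreted guidance ligand of Robo receptors, and Penk, the precursor of enkephalin peptides. Dermal fibroblasts build and renew the collagen and elastic fibres of the skin, and in this tissue elastic fibres form when elastin is laid on a scaffold of microfibrils and is then crosslinked by enzymes of the Lox family.

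The cells came from mouse skin, measured by droplet-based single-cell sequencing of the 3′ ends of transcripts. All mice had the same surgery, an incision near the tail from which a path was opened under the back skin up to the neck. Expanded mice then received a hydrogel expander, held by stitches near the neck, and control mice received none, so both arms carry a wound. The labels give no strain, sex or age. Skin was analysed on day 1 (sequencing rounds 1 and 2), day 2 (rounds 1 and 2) and day 4 (round 1), with 1 control and 1 expanded library each, which makes 5 libraries per arm. The mice of an arm and round were pooled in 1 tube, and living cells were sorted by exclusion of the dye DAPI. A library is therefore a pool of animals, and p-values measure the spread between such pools. The question of the study, as its title states it, is how skin responds to expansion by stretch. Values of 5 libraries are given below in the order day 1 round 1, day 1 round 2, day 2 round 1, day 2 round 2 and day 4.

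A fibroblast was a cell in which Col1a1, Col1a2, Col3a1 and Dcn, genes of the major collagens and of decorin, together held at least 1% of the unique molecular identifiers (UMIs, counted molecules), with at least 1 UMI of Pdgfra, no UMI of the leukocyte gene Ptprc, and Krt5 and Krt14 together under 0.3%. Of these, Cilp fibroblasts had 2 or more Cilp UMIs, under 2 of Cpz, under 5 of Tnc, under 3 of Coch and Crabp1, under 6 of Mme, Wnt5a, Grem1 and Igfbp2, and under 4 of Slc26a7, Prlr, Pappa2 and Corin. The members were thus selected on measured values, and levels of these genes are given as description without a test. Tnc is the matrix protein tenascin-C, made in wounds and under load. Fibroblasts that met every limit but had no Cilp UMI, 1102 cells, served for comparison and are called Cilp-negative fibroblasts.

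Cilp fibroblasts were spread unevenly between the arms. The control libraries held 171, 249, 55, 116 and 169 of them, and the expanded libraries 35, 22, 3, 4 and 8. Of the fibroblasts in a library these were 6.83%, 11.3%, 9.32%, 11.0% and 8.94% in control and 3.95%, 2.93%, 0.781%, 2.45% and 2.60% in expanded skin. The mean share was 9.47% ± 1.79 (SD, n = 5) in control and 2.54% ± 1.15 (SD, n = 5) in expanded skin, and no expanded library reached the lowest control library. No test is given, since the rule itself uses genes whose levels differed between the arms. Fibroblasts with 5 or more Tnc UMIs had a share of 5.87% ± 4.91 in control and 47.2% ± 12.1 in expanded libraries (SD, n = 5 each). With the Tnc limit lifted, the shares were 9.87% ± 2.04 and 4.03% ± 1.73 (SD, n = 5 each).

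The loss of cells at each limit shows how the arms differ before any response is measured. Fibroblasts with at least 2 Cilp UMIs, whatever their other genes, were 28.8% to 34.0% of control and 12.9% to 25.9% of expanded fibroblasts. Among these 2636 control cells, 52.0% were over the Cpz limit, 34.1% over that of the Mme group and 14.4% over that of Coch and Crabp1. A further 4.29% were over that of Tnc and 2.24% over that of the Slc26a7 group, and 28.8% met all limits. Among the 487 expanded cells, 32.9% were over the Cpz limit, 41.1% over that of the Mme group and 54.8% over that of Coch and Crabp1. The Tnc limit was passed by 38.2% and that of the Slc26a7 group by 6.57%, and 14.8% met all limits. Cells can be over several limits at once. Every limit but that of Cpz thus took a larger share of the Cilp-carrying cells of expanded skin than of control skin. The gap was widest for the Coch and Crabp1 limit and the Tnc limit. These limits are fixed UMI counts, and depth differed between the arms. Median UMIs per fibroblast were 8095 to 14263 in control and 10104 to 17238 in expanded libraries, higher in the expanded library of each day and round. The part of depth in the loss at each limit was not tested.

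**Figure D1:**
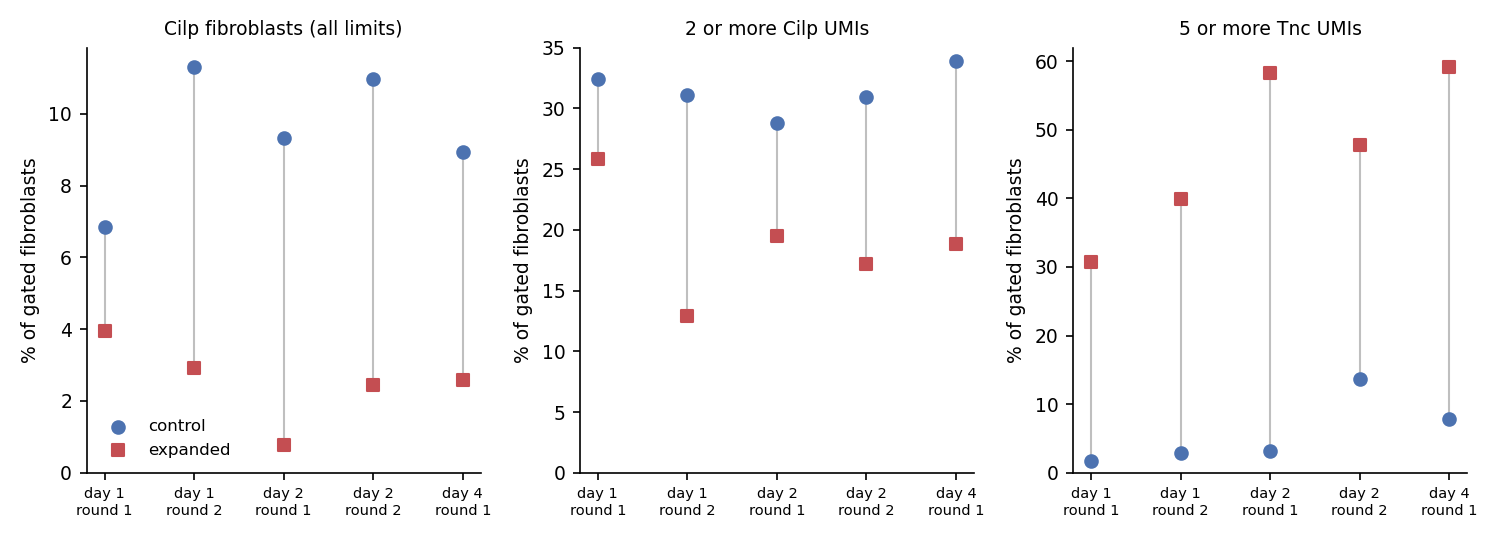
Share of gated fibroblasts, in percent, in each library by day and round, for Cilp fibroblasts under all limits (left), fibroblasts with 2 or more Cilp UMIs (middle) and fibroblasts with 5 or more Tnc UMIs (right). Blue circles are control and red squares expanded libraries, 1 value per library, with grey lines joining a day and round; the expanded value is the lower one in 5 of 5 pairs in the left and middle panels and the higher one in 5 of 5 pairs in the right panel.

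Cilp was seen far more often in fibroblasts than in leukocytes. Its level stood at 904, 1123, 804, 927 and 1027 CPM (UMI counts summed per library and cell set and scaled to a common total) in the members of the control libraries and 893, 938, 1194, 695 and 846 CPM in those of the expanded libraries. At least 1 Cilp UMI was seen in 36.4% to 46.3% of control fibroblasts, at medians of 8095 to 14263 UMIs per cell, but in 0.765% to 6.68% of Ptprc-positive cells of the same libraries, which should lack the gene, at medians of 5118 to 9287 UMIs. Members had a median of 7185 to 11658 UMIs in control and 8716 to 15129 UMIs in expanded libraries. They held 574841 to 1860866 UMIs per control library, 531756 and 208872 in the expanded libraries of day 1, and 48895 to 66166 in the other 3 expanded libraries. No member's barcode occurred among the members of another library, and at most 18 kept barcodes were shared by 2 libraries. All kept cells together held 17318478 to 73723329 UMIs per control and 20247886 to 51783419 per expanded library. At the threshold, the 190 control cells with 1 Cilp UMI, just outside, had Lox at 499, Eln at 546 and Mfap4 at 729 CPM, and the 101 control cells with 2 Cilp UMIs, just inside, had 398, 543 and 828 CPM. The 460 control members with 6 or more Cilp UMIs had 834, 1769 and 1927 CPM. The members are therefore the upper part of a range and are not set apart from their neighbours at the threshold.

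Lox and Slit2 fitted the label, and Penk did so only in part. Lox stood at 1070.4, 856, 663, 514 and 440.0 CPM in control members and 342, 229, 175, 125 and 122 CPM in Cilp-negative fibroblasts of the same libraries, and it was higher in the members in 5 of 5. Slit2 stood at 376, 300.4, 146, 135 and 195 CPM in control members against 194, 141, 59.7, 75.5 and 82 CPM, again higher in 5 of 5. Penk stood at 278, 179, 285, 252 and 226 CPM against 291, 162, 229.5, 116 and 213 CPM, higher in 4 of 5 libraries with overlapping ranges, so Penk did not separate Cilp fibroblasts from Cilp-negative ones. All other gated fibroblasts together had a mean of 111 CPM of Penk against 244 CPM in the members. At least 1 UMI of Lox was found in 85.1% ± 6.87 (SD, n = 5), of Slit2 in 67.6% ± 11.9 and of Penk in 65.7% ± 9.75 (SD, n = 5 each) of the control members. In Ptprc-positive cells the mean shares were 6.80%, 4.03% and 4.07%. Cilp-negative fibroblasts of the control libraries came closer, with 34.0% to 51.2% for Lox, 27.6% to 47.5% for Slit2 and 38.3% to 52.1% for Penk. Their medians were 6204 to 9834 UMIs per cell. All of Lox, Slit2 and Penk were seen in 306 of 760 control members, and 28 had none of them.

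Elastic fibre genes were among those with the highest level in control members relative to Cilp-negative fibroblasts. The values that follow rank genes by the ratio of mean CPM between Cilp and Cilp-negative fibroblasts of the 5 control libraries, and they describe the selected cells without a test. Mfap4, a microfibril-associated protein of elastic fibres, led the genes with the same direction in all libraries at 1299, 1896, 1677, 897 and 1965 CPM against 237, 380.0, 214, 166 and 168 CPM, a ratio of 6.65. Eln, elastin itself, stood at 1432, 1855, 1149.9, 872 and 1331 CPM against 271, 305, 208, 308 and 145 CPM, a ratio of 5.37. Ltbp2, a latent TGF-beta binding protein of microfibrils, had a ratio of 5.23, with means of 90.3 ± 36.8 and 17.3 ± 9.38 CPM (SD, n = 5 each). The ratio of Lox was 3.57. Of the 17 listed elastic fibre genes, all of which reached 10 CPM in one of the groups, 7 were higher and 2 lower in the members of all 5 control libraries. Over all 8018 genes at that level, 685 (8.54%) were higher and 660 (8.23%) lower in all 5.

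Of 18 listed Wnt genes at 10 CPM, 3 were higher and 1 lower in the members of all 5 control libraries, and of 18 matricellular genes 7 were higher and 3 lower, beside the 8.54% and 8.23% of all genes. Dkk2, a secreted Wnt antagonist, stood at 350.1, 445, 235, 216 and 317 CPM against 70.3, 67.4, 46.4, 42 and 27.3 CPM. Lgr5, the R-spondin receptor known as a stem cell marker of epithelia, stood at 76.5, 60.7, 50.4, 51.8 and 42.1 CPM against 5.06, 12.3, 11.9, 7.75 and 7.59 CPM. Both genes were higher in the members of every control library without overlap of the ranges. Ccn2, a matricellular protein induced by TGF-beta and YAP, stood at 185, 414, 97.4, 123 and 291 CPM against 46, 39.2, 25.2, 21.9 and 63.8 CPM. Its relative Ccn5 had a ratio of 4.59, C1qtnf3 one of 3.82, the membrane-type matrix metalloproteinase Mmp16 one of 3.68, the hemicentin Hmcn2 one of 5.1 and Fibin one of 3.85. Among the 28 TGF-beta and activin genes at 10 CPM, 12 were higher and 2 lower in the members of all 5 control libraries. For the 12 listed glucocorticoid-responsive genes the counts were 6 and 0, and for 8 small leucine-rich proteoglycans 5 and 1. The ranking also named the haemoglobin genes Hba-a1, Hbb-bs and Hbb-bt. Hba-a1 stood at 0.588, 1.61, 1.74, 2660.4 and 584 CPM in control members. Of its 3750 UMIs in the members of day 2 round 2, 1 cell held 3737, and of the 970 on day 4, 1 cell held 961.

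**Figure D2:**
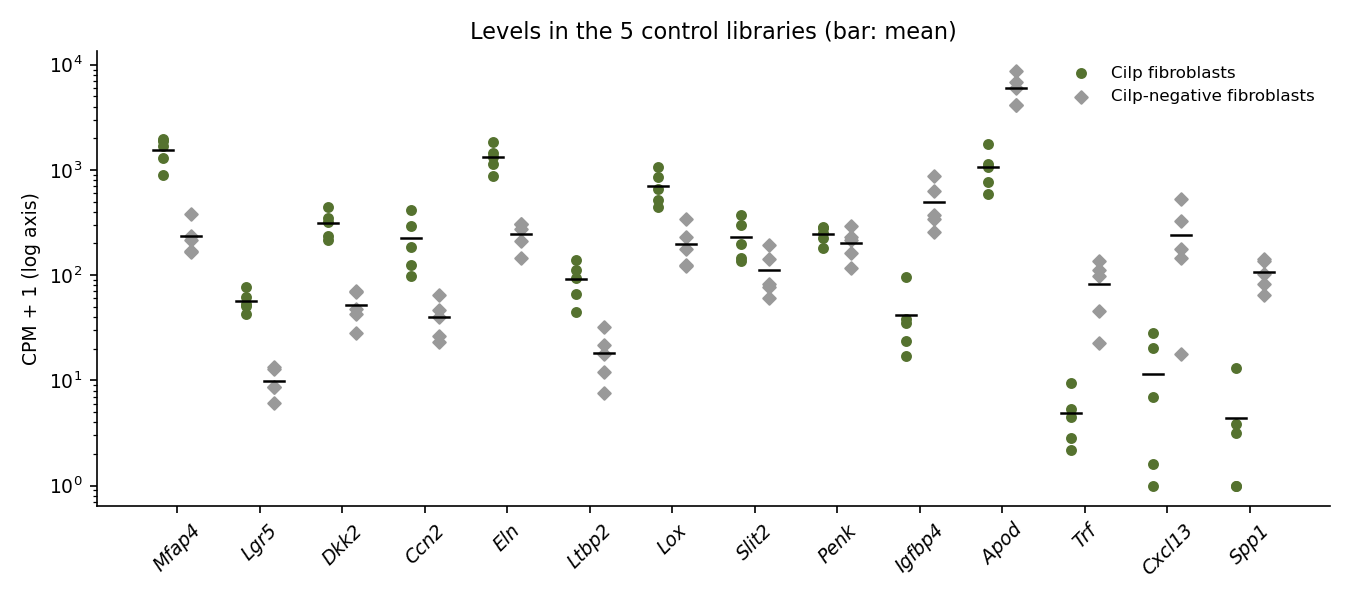
Levels, as CPM + 1 on a log axis, of 14 genes in the 5 control libraries, for Cilp fibroblasts (green circles) and Cilp-negative fibroblasts (grey diamonds). Each point is the sum over the cells of a library and the bar is the mean; Mfap4, Lgr5, Dkk2, Ccn2, Eln, Ltbp2, Lox and Slit2 lie higher and Igfbp4, Apod, Trf, Cxcl13 and Spp1 lower in the Cilp fibroblasts of every library, while the points of Penk overlap.

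Other genes were lower in the members than in Cilp-negative cells. Apod, a lipid-binding lipocalin, stood at 591, 765, 1069.9, 1782 and 1144 CPM in control members against 4163, 4148, 6000.0, 8627 and 6879 CPM, lower in 5 of 5. Igfbp4, an IGF-binding protein, had means of 41 ± 31.4 and 495 ± 255 CPM (SD, n = 5 each). The B-cell chemokine Cxcl13 had means of 10.5 ± 12 and 239 ± 197 CPM, and the phosphoprotein Spp1 3.41 ± 4.99 and 105 ± 33.8 CPM (SD, n = 5 each). Trf, Vit, Cp, Sult1e1 and Gdf10 were also lower in the members of all 5 control libraries, and Saa3 in 3 of 5. Of the 19 complement and coagulation genes at 10 CPM, 1 was higher and 10 were lower in the members of all 5, and of 25 ribosomal protein genes 0 and 16. Of all genes at that level, 8.54% were higher and 8.23% lower in all 5. The ribosomal differences were small, with a median log2 ratio of -0.12, beside -0.30 for the complement and coagulation genes. At least 1 UMI of the proliferation gene Mki67 was seen in 20 of 760 control and 3 of 72 expanded members, and in a mean of 16.3% of the Ptprc-positive cells of control libraries.

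The control levels differed by day for some genes. Lox was lowest on day 4 and highest in the libraries of day 1. Gpx3, a secreted glutathione peroxidase, stood at 325, 296, 1286, 953 and 388 CPM in control members and Ogn, the proteoglycan osteoglycin, at 367, 322, 981, 674 and 466 CPM, both highest in the libraries of day 2. Days were not tested against each other, with 1 or 2 control libraries a day.

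With enough cells per library, the response to expansion could be tested only with the expanded libraries of day 1. Libraries entered the test with at least 20 members, which kept 5 control libraries and the 2 expanded libraries of day 1. With day as a covariate in the quasi-likelihood test of edgeR, 2 of 9377 genes were higher (0.0213%) and 2 lower (0.0213%) in expanded skin at a Benjamini-Hochberg adjusted p under 0.05, and 837 had an unadjusted p under 0.05. None of the 4 met the rule for the largest responses, so they are named after their values were seen. In simulated counts of this size the test found 4% of genes with a change of 1 and 66.5% of genes with a change of 2 on the log2 scale, so most changes of the smaller size would be missed. The control and expanded library of the same day and round form a pair by the labels. With the pair as a block, 35 genes were higher (0.373%) and 54 lower (0.576%), in a fit with 1 residual degree of freedom. That fit held no expanded partner for the control libraries of day 2 and day 4. Its arm difference therefore rests on the 2 pairs of day 1, also where values of every pair are printed beside its adjusted p. A test of all 10 libraries with 3 or more members, chosen after the counts of members were known, gave 14 higher (0.236%) and 21 lower (0.354%) of 5928 genes. Of the 89 genes of the block and the 35 of all 10 libraries, 22 were shared and had the same direction, which is 24.7% of the one and 62.9% of the other list. The genes below passed in both of these fits unless stated otherwise, and were named after their values were seen. All 3 fits share their libraries, so this count shows only which calls hold under both. The fit over all 10 libraries added the expanded libraries of day 2 and day 4, with 3, 4 and 8 members. With called doublets left out, those libraries kept 3, 2 and 3 members, and that fit was not repeated without doublets.

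Vcam1 and Adamts4 were lower in expanded skin in all 3 fits. Vcam1, an adhesion receptor for leukocytes that cytokines induce, stood at 206, 134, 88.7, 104 and 253 CPM in control and 30.1, 19.2, 142, 0 and 15.1 CPM in expanded members. The expanded library of day 2 round 1, with 3 members, lay within the control range and the other 4 lay below it. The log2 fold change was -2.76 (SE 0.37, adjusted p = 0.0217, edgeR). Adamts4, a protease that cleaves aggrecan and versican, stood at 465, 397, 146, 109 and 258 CPM in control and 103, 86.2, 202, 0 and 15.1 CPM in expanded members, a log2 fold change of -2.24 (SE 0.30, adjusted p = 0.0217, edgeR). It was lower in 4 of 5 pairs, and the library of day 2 round 1 again went the other way. Among the alternatives of processing, Vcam1 and Adamts4 each kept the call in 14 and lost it in 8. Without the day term, for example, 4 genes were higher and 0 lower, so neither passed. Their log2 fold changes stayed negative, from -3.25 to -2.34 for Vcam1 and from -3.27 to -1.62 for Adamts4. Dusp2, a nuclear phosphatase that acts on MAP kinases, and the unnamed gene model Gm26802 were higher with day as a covariate. Dusp2 stood at 5.3, 5.91, 1.74, 4.97 and 4.21 CPM in control and 48.9, 52.7, 0, 0 and 60.5 CPM in expanded members (log2 fold change 3.05, SE 0.47, adjusted p = 0.048, edgeR). Gm26802 stood at 56.5, 84.4, 38.3, 46.8 and 25.3 and 297, 229.8, 0, 61.4 and 0 CPM (log2 fold change 1.83, SE 0.28, adjusted p = 0.048, edgeR). The number of calls depended on single libraries. The 4 genes became 0 without the control library of day 1 round 1, where 392 genes had an unadjusted p under 0.05. They became 1 without that of day 1 round 2, 16 without that of day 2 round 1, 7 without that of day 2 round 2, 8 without that of day 4 and 7 without the expanded library of day 1 round 1.

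Several genes that interferon induces were lower in expanded members. Gbp2, an interferon-induced GTPase, stood at 231, 236, 141, 209 and 244 CPM in control and 28.2, 81.4, 40.5, 20.5 and 30.2 CPM in expanded members, without overlap (log2 fold change -2.38, SE 0.40, adjusted p = 0.0598 with day as a covariate, adjusted p = 0.000533 with the block and adjusted p = 0.00115 over all 10 libraries, edgeR). Iigp1, a GTPase of the same response, stood at 168, 154, 15.7, 164 and 148 and 24.4, 14.4, 0, 40.9 and 0 CPM (adjusted p = 0.299 with day as a covariate, adjusted p = 7.22e-05 with the block and adjusted p = 0.0253 over all 10 libraries, edgeR); here the control library of day 2 round 1 was as low as the expanded ones. Ifi203, another gene of the response, was lower in both fits as well. Cxcl9 and Cxcl10, chemokines that draw T cells, and Cd74 of antigen presentation fell with the block and were not tested over all 10 libraries. Cxcl10 stood at 159, 15.6, 19.1, 125 and 49.4 CPM in control members and at 9.4 CPM in expanded members of day 1 round 1, and had no UMI in the other 4 expanded libraries. Of 21 interferon response genes tested, 2 fell and 0 rose with the block, beside 0.576% and 0.373% of all genes. With day as a covariate 0 passed. Over all 10 libraries 15 were tested, of which 2 fell and 1, Ifitm1, rose, beside 0.354% and 0.236% of all genes. The median log2 fold change of the interferon response genes with day as a covariate was -0.41, beside 0.0047 for all genes tested. Summed markers of dendritic cells, which include Cd74, moved with this group, at 29.6 to 224 CPM in control and 0 to 37.6 CPM in expanded libraries, and those of macrophages and monocytes were at 19.1 to 193 CPM in control and 0 to 75.6 CPM in expanded libraries. In expanded members Ccr7, Cd207 and Flt3 of the 9 dendritic cell markers and C1qb, Fcer1g, Mrc1 and Tyrobp of the 10 macrophage markers were at 0. The part of such cells in the result was not tested.

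The promoters of Gbp2 and Cxcl10 are shown because both genes fell with the block and both promoters hold a match to the interferon-stimulated response element. The sequences run from 250 bases before to 50 bases after the transcription start and are those of RefSeq on build GRCm38.p6. Capitals mark matches to GAAA, any 2 bases and GAAA again, on either strand, the only motif searched, which 3.44% of 32851 promoters of the same length hold. Gbp2 lies at chr3:142620413-142620712 on the plus strand and Cxcl10 at chr5:92348840-92349139 on the minus strand. Both promoters were picked for holding a match, so the share over all promoters is background and no comparison with them. Promoters of other genes that fell are not shown. A match is a description of the letters only.
Gbp2: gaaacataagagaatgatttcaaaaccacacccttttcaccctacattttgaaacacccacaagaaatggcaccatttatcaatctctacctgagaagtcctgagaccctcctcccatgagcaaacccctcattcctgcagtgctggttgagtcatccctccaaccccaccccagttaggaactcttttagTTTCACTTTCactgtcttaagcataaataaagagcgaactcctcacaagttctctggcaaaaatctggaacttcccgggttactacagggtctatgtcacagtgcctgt
Cxcl10: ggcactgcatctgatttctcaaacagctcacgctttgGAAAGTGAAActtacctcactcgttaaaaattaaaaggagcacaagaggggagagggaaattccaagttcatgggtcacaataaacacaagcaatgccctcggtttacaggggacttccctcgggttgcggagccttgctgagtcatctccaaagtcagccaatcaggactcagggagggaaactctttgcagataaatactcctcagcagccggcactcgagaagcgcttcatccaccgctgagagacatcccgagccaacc

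Timp1, Anxa8, agouti and Ier2 were among the genes that rose. Timp1, an inhibitor of matrix metalloproteinases, stood at 95.3, 71.5, 53.9, 248 and 171 CPM in control and 325, 675, 3380.4, 1575 and 121 CPM in expanded members (adjusted p = 0.000107 with the block, adjusted p = 0.0248 over all 10 libraries and adjusted p = 0.159 with day as a covariate, edgeR), higher in 4 of 5 pairs. Anxa8, a calcium-dependent membrane-binding annexin, stood at 11.2, 15, 15.7, 20.6 and 11.4 and 67.7, 62.2, 142, 164 and 60.5 CPM without overlap (adjusted p = 0.00351 with the block, adjusted p = 0.000162 over all 10 libraries and adjusted p = 0.0524 with day as a covariate, edgeR). The agouti gene, symbol a, whose secreted product acts on melanocortin receptors, stood at 9.42, 9.67, 10.4, 19.9 and 22.3 and 48.9, 153, 101, 389 and 332 CPM, again without overlap (adjusted p = 0.000235 with the block, adjusted p = 0.000102 over all 10 libraries and adjusted p = 0.0524 with day as a covariate, edgeR). The immediate early gene Ier2 stood at 282, 273, 214, 524 and 369 and 686, 661, 749, 777 and 1436 CPM and was higher in 5 of 5 pairs (adjusted p = 0.345 with day as a covariate, adjusted p = 0.0119 with the block and adjusted p = 0.0253 over all 10 libraries, edgeR). Of 16 EGR, NR4A and IER immediate early genes, 2 rose with the block, Ier2 and Egr1, beside 0.373% of all genes. Over all 10 libraries 1 rose, beside 0.236% of all genes, and none fell in either fit. Their median log2 fold change was 0.45, beside 0.0047 for all genes tested. Igfbp4, Ier5l, Slc27a3, Tmem176b and the splicing factor Sf3b6 also rose in both fits. With the pair as a block over all 10 libraries, Sf3b6 no longer passed (adjusted p = 0.0564, edgeR), and the other 21 of the 22 shared genes did. Igfbp4 stood at 222, 81.4, 0, 0 and 1678 CPM in expanded members, higher than the control of its pair in 3 of 5 libraries and at 0 in the other 2. Ccn2 stood at 470.1, 2159, 3097, 2699.7 and 0 CPM in expanded members. It rose with the block (adjusted p = 0.000947, edgeR) but not over all 10 libraries (adjusted p = 0.135), where the 8 members of day 4 held no Ccn2 UMI.

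**Figure D3:**
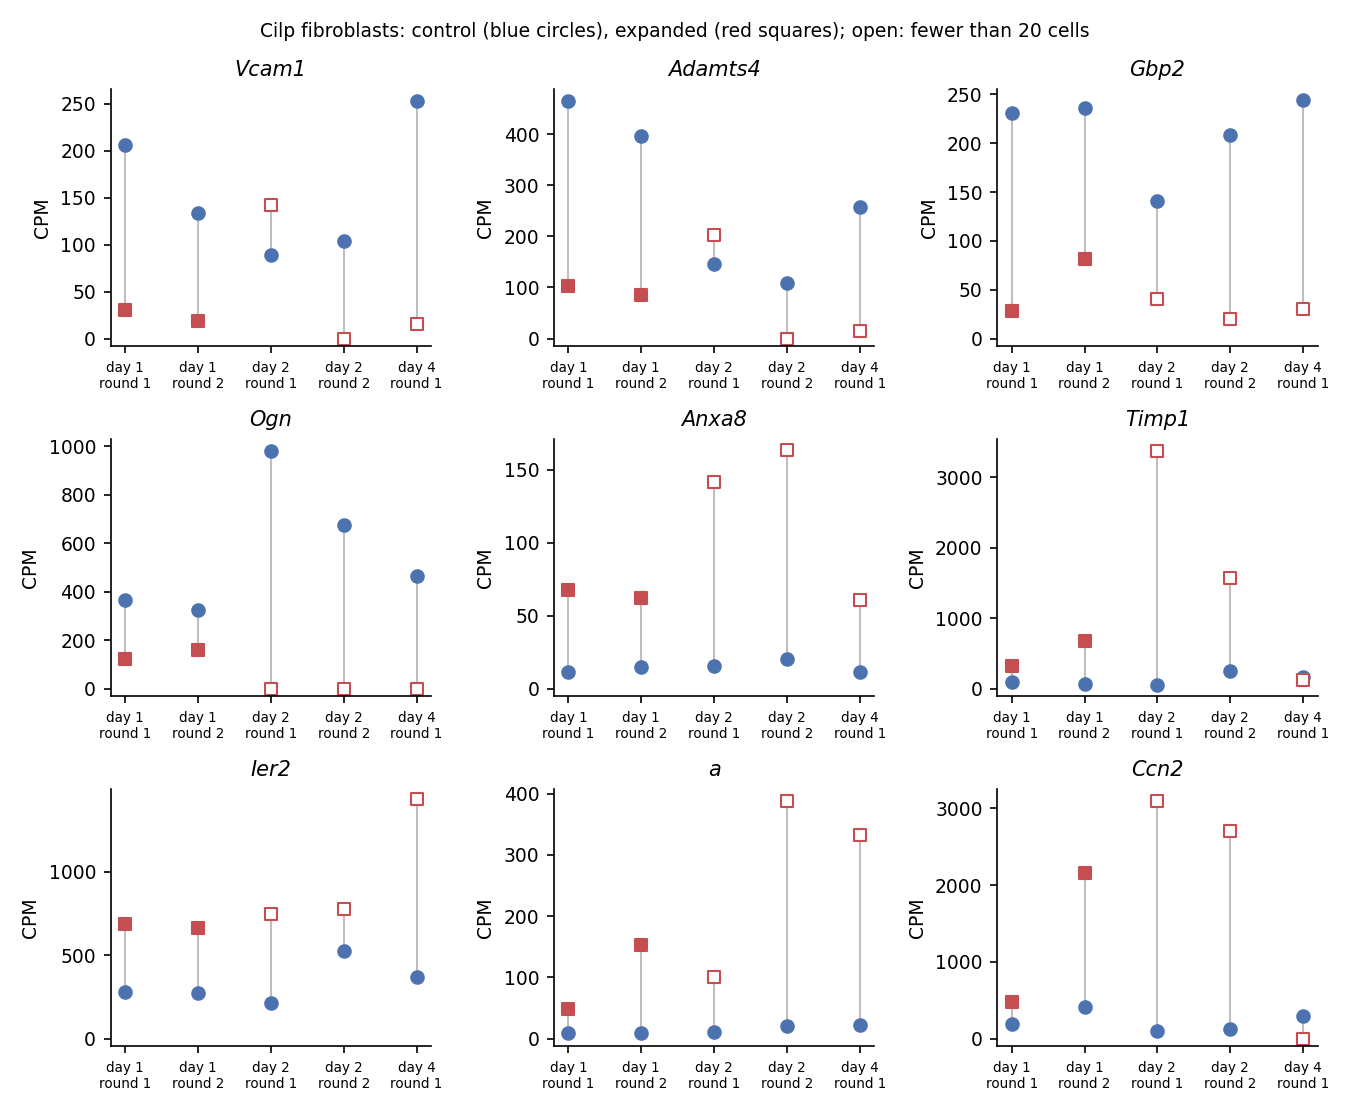
CPM of 9 genes in the Cilp fibroblasts of each library by day and round; blue circles are control and red squares expanded libraries, and open symbols mark libraries with fewer than 20 members. Gbp2 and Ogn are lower and Anxa8, Ier2 and a higher in the expanded library of 5 of 5 pairs, whereas Vcam1 and Adamts4 are lower and Timp1 and Ccn2 higher in 4 of 5.

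Collagen, crosslinking, elastic fibre, proteoglycan and hyaluronan genes had negative medians, and 1 of their tested members, Ogn, passed. Of 19 collagens beside those of the rule, 16 had a negative log2 fold change with day as a covariate and none passed in the 3 fits (median -0.45). Of 24 crosslinking and folding enzymes 22 were negative (median -0.32), of 17 elastic fibre genes 13 (median -0.16) and of 8 hyaluronan genes 8 (median -0.68), and none passed in the 3 fits. Over all 10 libraries the medians were -0.57 for collagens, -0.48 for enzymes, -0.51 for elastic fibre and -1.01 for hyaluronan genes. Of the elastic fibre genes 15 of 17 were then negative, and the median of all genes tested was -0.03. With day as a covariate, all 8 small leucine-rich proteoglycans tested were negative (median -0.76), and Ogn fell in both the block fit and that of all 10 libraries. Ogn stood at 120.4, 158, 0, 0 and 0 CPM in expanded members. Of 18 matricellular genes tested, 10 were positive (median 0.15). With the block Ccn2 and Ccn3 rose and Thbs4 fell, beside 0.373% and 0.576% of all genes. None passed over all 10 libraries or with day as a covariate. Of 15 matrix metalloproteinases and inhibitors, 1 rose and 2 fell with the block, beside 0.373% and 0.576% of all genes. Over all 10 libraries 1 of 14 rose and 3 fell, beside 0.236% and 0.354% of all genes. Col1a1, a gene of the fibroblast gate, is given as a description only, at 12185, 15640.0, 10806, 6245 and 11216 CPM in control and 8318, 10494, 2489.8, 2761 and 3521 CPM in expanded members. The fibronectin gene Fn1, the matrix metalloproteinase gene Mmp27, Procr, Gpx3, Myoc, Ugdh, an enzyme of hyaluronan precursor synthesis, and Glt8d2 fell in both fits. Lox, Slit2 and Penk did not pass in any of the 3. Lox stood at 638, 1206, 769, 266 and 136 CPM in expanded members (log2 fold change -0.16, SE 0.32, adjusted p = 0.917, edgeR). Slit2 stood at 295, 459.6, 142, 307 and 484 CPM (0.05, SE 0.28, adjusted p = 0.981, edgeR) and Penk at 213, 38.3, 385, 164 and 60.5 CPM (-0.81, SE 0.47, adjusted p = 0.625, edgeR). A p that misses the threshold at these cell numbers does not show that their levels were alike.

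**Figure D4:**
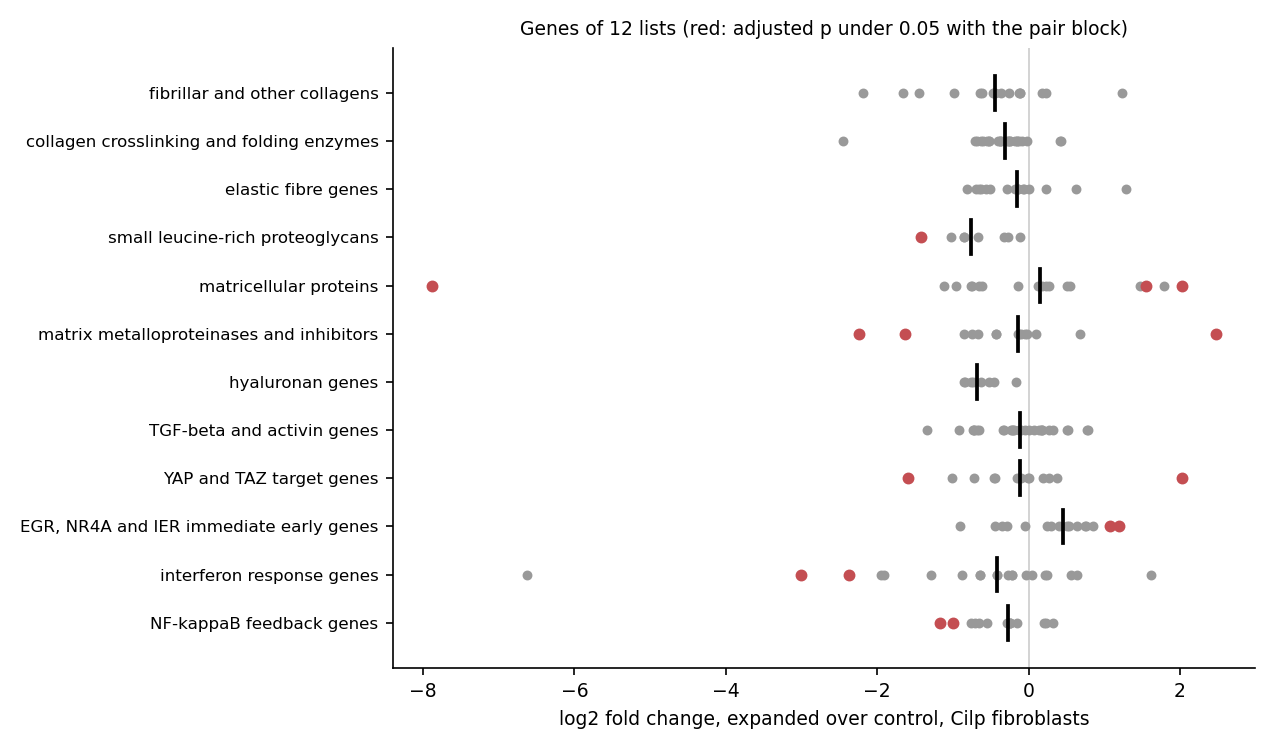
Log2 fold change, expanded over control with day as a covariate, of the tested genes of 12 gene lists in Cilp fibroblasts; grey points are genes, red points genes with an adjusted p under 0.05 with the pair as a block, and black bars list medians. Proteoglycan and hyaluronan genes lie at or below 0 throughout, and the 2 red points of the interferon list are the low genes Iigp1 and Gbp2.

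Inflammatory genes gave mixed values. Ptgs2, the inducible prostaglandin synthase, stood at 994, 765, 318, 533 and 488 CPM in control and 319.7, 229.8, 1255, 389 and 287 CPM in expanded members and fell with the block (adjusted p = 0.000524, edgeR) but not over all 10 libraries (adjusted p = 0.57). Ccl2, a chemokine for monocytes, behaved alike, at 1298, 837, 386, 505 and 1209 and 446, 373, 5101, 757 and 196 CPM (adjusted p = 0.00343 with the block and adjusted p = 0.973 over all 10 libraries, edgeR). Of 14 NF-kappaB feedback genes 2 fell with the block, Nfkb1 and Tnfaip3, beside 0.576% of all genes, and 0 passed over all 10 libraries. Of 6 acute phase and secreted alarm genes tested, Saa1, Saa3 and Serpina3n rose with the block, beside 0.373% of all genes. Here single cells weighed in: of 532 Saa3 UMIs in the 22 expanded members of day 1 round 2, 1 cell held 212, and 6 of 22 had any. In the same library 1 cell held all 20 UMIs of the endothelial gene Cldn5. Summed endothelial markers were at 38.3 to 113 CPM in control and 20.2 to 192 CPM in expanded libraries and keratinocyte markers at 50.4 to 84.4 CPM in control and 0 to 92.1 CPM in expanded libraries. All 8 adipocyte markers were at 0 in expanded members, and their sum was at only 0 to 2.13 CPM in control libraries. With doublets called by Scrublet or hashtags left out, only 1 expanded library kept 20 members, and 2 genes passed.

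The response of Cilp fibroblasts differed from that of Cilp-negative fibroblasts in the same libraries. The test took the difference of the 2 responses within libraries, over the 7 libraries above, and again rests on day 1 for the expanded arm. Of 10206 genes the response was higher in Cilp fibroblasts for 95 (0.931%) and lower for 45 (0.441%). Tested alone in these libraries with day as a covariate, 643 of 9503 genes passed in Cilp-negative fibroblasts, against 4 of 9377 in Cilp fibroblasts. The expanded libraries of day 1 held 57 and 109 Cilp-negative cells at medians of 7922 and 6603 UMIs. They held 35 and 22 Cilp fibroblasts at medians of 14571 and 8760 UMIs. The 6 named genes with a higher response were all lower with expansion in the Cilp-negative fibroblasts of both rounds, and their values in Cilp fibroblasts varied in direction. Gpx3 stood in Cilp fibroblasts at 325 and 296 CPM in the control and 197 and 47.9 CPM in the expanded libraries of day 1, and in Cilp-negative fibroblasts at 494 and 656 CPM in control and 2.07 and 5.1 CPM in expanded (difference of log2 fold changes 5.58, SE 0.52, adjusted p = 2.04e-05, edgeR). Postn, the matricellular protein periostin, stood in Cilp fibroblasts at 517 and 840.5 CPM in the control and 1142 and 962 CPM in the expanded libraries of day 1, and in Cilp-negative fibroblasts at 2199 and 1073 CPM in control and 99.5 and 227 CPM in expanded (difference 3.91, SE 0.52, adjusted p = 0.000413, edgeR). Hpgd, the enzyme that breaks down prostaglandins, stood in Cilp fibroblasts at 47.1 and 120.4 CPM in the control and 109 and 172 CPM in the expanded libraries of day 1, and in Cilp-negative fibroblasts at 316 and 223 CPM in control and 6.22 and 23 CPM in expanded (difference 4.93, adjusted p = 0.000185, edgeR). Lrrc15, a membrane protein of activated fibroblasts, had a difference of 4.08 (adjusted p = 0.000413), Igfbp3 of 4.01 (adjusted p = 0.00757) and Armh4 of 3.07 (adjusted p = 0.0176, all edgeR). Igfbp3 differed between rounds in Cilp fibroblasts, at 39.4 and 87.6 CPM in control and 167 and 14.4 CPM in expanded libraries.

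Matrix and elastic fibre genes were among those whose response was higher. Lox stood in Cilp fibroblasts at 1070.4 and 856 CPM in the control and 638 and 1206 CPM in the expanded libraries of day 1, and in Cilp-negative fibroblasts at 342 and 229 CPM in control and 112 and 115 CPM in expanded (difference 1.18, SE 0.26, adjusted p = 0.026, edgeR). Mfap4 stood in Cilp fibroblasts at 1299 and 1896 CPM in the control and 1362 and 2063 CPM in the expanded libraries of day 1, and in Cilp-negative fibroblasts at 237 and 380.0 CPM in control and 124 and 154 CPM in expanded (difference 1.18, SE 0.23, adjusted p = 0.00925, edgeR). Later days were outside this test. Mfap4 was seen in 3 of 3 and 3 of 4 expanded members of day 2 but in 2 of 8 of day 4. Eln was seen in 3 of 3, 4 of 4 and 2 of 8. In control members of day 4 the shares were 86.4% for Mfap4 and 79.9% for Eln. Of 17 elastic fibre genes tested 3 had a higher response, Fbn1, Mfap2 and Mfap4, and none a lower one. Over all genes tested, the response was higher for 0.931% and lower for 0.441%. Of 24 crosslinking and folding enzymes the 3 that passed, Lox, Loxl1 and Pcolce2, were all higher. Of 10 proteoglycans Ogn and Aspn were higher, and of 19 collagens Col5a2 and Col14a1 were higher and Col8a1 lower. The median differences of these 4 lists were 0.55, 0.39, 0.73 and 0.51, beside -0.02 for all genes. Other lists had medians as high, with 0.76 for hyaluronan, 1.09 for universal and adventitial fibroblast and 1.22 for imprinted growth genes. That of interferon response genes was -0.43. Of 19 matricellular genes 4 had a higher and 3 a lower response. Of 15 metalloproteinases and inhibitors only Timp3 passed, with a lower response. Ccn2 had a difference of 1.85 (adjusted p = 0.0256, edgeR), whereas Slit2 missed the threshold at 1.27 (adjusted p = 0.0531, edgeR) and Penk at 1.04 (adjusted p = 0.279, edgeR).

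Among the genes with a lower response in Cilp fibroblasts were a transcription factor, a collagen and chemokines. Sox9, a transcription factor of cartilage and glia, stood in Cilp fibroblasts at 18.2 and 16.1 CPM in the control and 1.88 and 4.79 CPM in the expanded libraries of day 1, and in Cilp-negative fibroblasts at 45 and 52.7 CPM in control and 193 and 297 CPM in expanded (difference -4.83, SE 0.63, adjusted p = 0.000384, edgeR). Col8a1 stood in Cilp fibroblasts at 47.7 and 14 CPM in the control and 1.88 and 19.2 CPM in the expanded libraries of day 1, and in Cilp-negative fibroblasts at 7.58 and 4.9 CPM in control and 68.4 and 109.7 CPM in expanded (difference -5.80, adjusted p = 0.000335, edgeR). Cxcl5, a chemokine that draws neutrophils, had a difference of -7.12 (adjusted p = 0.038), Cxcl10 of -4.15 (adjusted p = 0.0258), Myoc of -3.51 (adjusted p = 0.00694) and Ebf2 of -3.25 (adjusted p = 0.031, all edgeR). Cxcl5 was at 0 and 4.79 CPM in expanded Cilp fibroblasts of day 1 and at 174 and 619 CPM in expanded Cilp-negative ones. Apod stood in Cilp fibroblasts at 591 and 765 CPM in the control and 1089 and 4405 CPM in the expanded libraries of day 1, and in Cilp-negative fibroblasts at 4163 and 4148 CPM in control and 26718 and 34429 CPM in expanded. Apod was thus several times higher in the Cilp-negative set of expanded skin, and the part of a different mix of cells in these differences was not tested. With all other gated fibroblasts as the comparison 19 genes were higher and 21 lower, and with Cpz fibroblasts, where 1 expanded library was left, 3 and 2. The differences of Gpx3 (4.25), Hpgd (2.72), Lrrc15 (2.11), Sox9 (-3.40), Col8a1 (-3.86), Cxcl10 (-4.58) and Cxcl5 (-7.41) passed against all other gated fibroblasts too, and those of Postn (0.58), Igfbp3 (1.01), Armh4 (0.76), Myoc (-2.25) and Ebf2 (-2.25) did not. The 140 genes became 62 without the control library of day 1 round 1 and 90 without that of day 1 round 2.

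**Figure D5:**
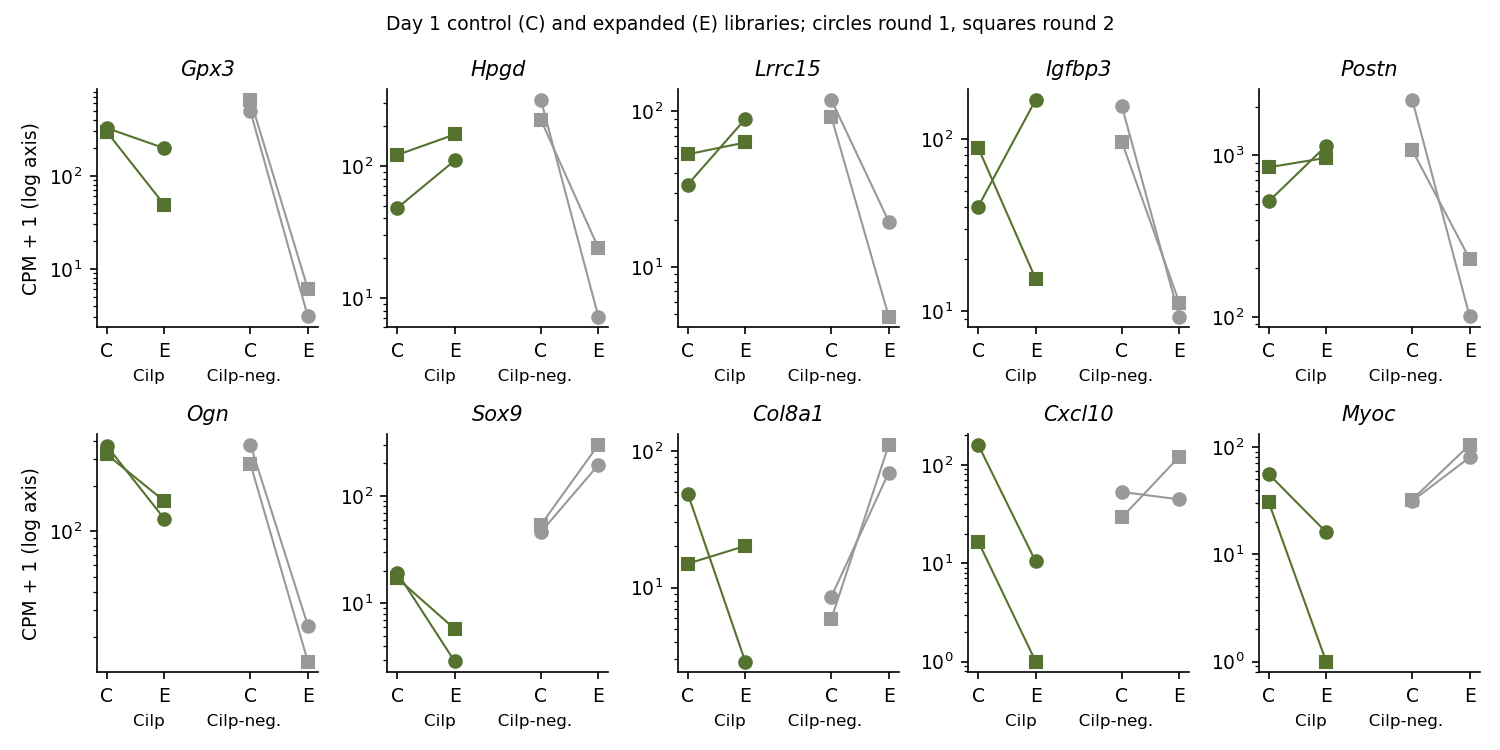
CPM + 1, on a log axis, of 10 genes in the day 1 control (C) and expanded (E) libraries, in Cilp fibroblasts (green, left) and Cilp-negative fibroblasts (grey, right); circles are round 1 and squares round 2, and lines join the libraries of a round. Gpx3, Hpgd, Lrrc15, Igfbp3, Postn and Ogn are lower with expansion in the Cilp-negative fibroblasts of both rounds, while Hpgd, Lrrc15 and Postn are higher with expansion in the Cilp fibroblasts of both, and Sox9, Col8a1 and Myoc are higher with expansion in the Cilp-negative fibroblasts of both rounds.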

How the data were processed

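The samples were 10 mRNA libraries, 5 per arm, and 8 hashing libraries used only to mark doublets and mice. The authors deposited raw UMI counts per gene and cell barcode, which per the file headers came from Cell Ranger 6.1.2, on build mm10 per the submitters' processing notes. A barcode was dropped with under 500 UMIs, under 200 genes or over 10% of its UMIs from mitochondrial genes. No gene or cell was merged or corrected for free RNA, and doublets were left in, with an alternative that removed those called by Scrublet (scanpy 1.11.5) or by hashtags. Counts were summed per library and cell set and tested with edgeR 4.0.16 (R 4.3.3; quasi-likelihood test, TMM, low-count filter), with day as a covariate and 3 residual degrees of freedom. A difference of responses was tested with a term per library. Control and expanded libraries of the same day and sequencing round are pairs by the labels; the correlations of their deviations from the arm means were 0.186, 0.174, 0.00339, 0.214 and 0.00976. DESeq2 1.42.0 was an alternative. The test was checked on simulated counts. Named genes were the largest changes past the threshold with the same direction in all 5 pairs (none passed), Lox, Slit2 and Penk, the smallest adjusted p-values of each gene list, the 6 highest and 6 lowest differences of response, and the 15 highest and 10 lowest ratios in control libraries, beside genes named after their values were seen. The members and lists were chosen with earlier results of these data known. The result of 1 marker gene and the marker sum that holds it are not reported here.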

Additional observations from a re-analysis of the deposited data

Results flagged for a closer look

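Of 54 groups of 5 libraries checked for a library far from the others, 7 held one, and chance gives about 1 in 20. Vcam1 was highest in the expanded library of day 2 round 1 (142 CPM, 3 members). Iigp1 was lowest in the control library of day 2 round 1 (15.7 CPM). Ier2 was highest in the expanded library of day 4 (1436 CPM, 8 members), and Gpx3 in that of day 1 round 1 (197 CPM). Igfbp4 was highest on day 4 in both arms, at 95.1 CPM in the control and 1678 CPM in the expanded library. Hba-a1 was highest in the control library of day 2 round 2 (2660 CPM), where 1 cell held nearly all its UMIs.

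The response to expansion differed between Cilp and Cilp-negative fibroblasts by a test of the difference itself for 12 named genes (edgeR, log2 scale). It was higher in Cilp fibroblasts for Gpx3 (5.58), Hpgd (4.93), Lrrc15 (4.08), Igfbp3 (4.01), Postn (3.91) and Armh4 (3.07). It was lower for Cxcl5 (-7.12), Col8a1 (-5.80), Sox9 (-4.83), Cxcl10 (-4.15), Myoc (-3.51) and Ebf2 (-3.25).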

How the results depend on the processing

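For the expansion response of Cilp fibroblasts, 4 genes passed in the main test and 148 without the low-count filter, 15 with DESeq2, 89 with the pair as a replicate block, 2 without called doublets and 1 with at least 3 Cilp UMIs. Alternatives chosen after seeing the data gave 7 without cells of 0.1% or more haemoglobin UMIs, 35 over all 10 libraries, and 37 over all 10 with the replicate block. Leaving out 1 library at a time gave 0 to 16. For the difference of responses, 140 genes passed in the main test, 270 without the filter, 47 after thinning to 2000 UMIs per cell, 5 against Cpz fibroblasts and 40 against all other gated fibroblasts, and 62 to 199 with 1 library left out. Against Cpz fibroblasts the differences of Hpgd (-0.61) and Myoc (2.97) changed sign. The number of genes tested moved as well. For the difference it was 10206 in the main test, 18657 without the filter and 5264 after thinning. For the response it was 9377 in the main test, 17052 without the filter and 5928 over all 10 libraries. The cause of the moves in the number of calls was not tested. The share of Cilp fibroblasts was lower in expanded skin by 6.93 percentage points, and the difference was -2.12 points with all kept cells as the denominator and -7.59 to -6.47 with 1 library left out. Among the values of single named genes, 380 of the response kept direction and side of the threshold, 110 gained and 35 lost the call; for the difference 157 kept both and 57 lost the call. Where an arm was left with 1 library, it was assumed to vary like the others. A comparison of day 2 with day 1 was not run, since the expanded libraries of day 2 held 3 and 4 members. A test over mice was not run, since 0 of 14 expanded mice had 10 members. In simulated counts, 20% of calls were false at a log2 change of 1 and 6.99% at 2.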
